A study of Mus musculus with 12 samples.

Results

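The comparison described here sets 4 hypothalamus arrays from obese mice given withaferin A against 4 arrays from obese mice given the solvent DMSO. These are 8 of the 12 arrays in the series; the other 4 came from mice given celastrol. Every gene that a probe set names alone was kept if its mean log2 signal over the 12 arrays reached the 25th percentile, a level of 5.81, which left 14953 genes of 19938. The mice were C57BL/6J males aged 23 weeks that had eaten a 45% fat chow since they were 3 weeks old, 20 weeks in all. All of them, the controls included, first received DMSO by intraperitoneal injection for 4 days. For another 4 days the control group continued on DMSO daily, while the treated group received withaferin A at 2 mg/kg and the third group celastrol at 100 ug/kg. There was no group on an ordinary diet and none without DMSO, so each difference below is between injected, diet-fed animals. The labels call the arrays of a group biological replicates and do not say whether each is 1 mouse or a pool of mice.

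Withaferin A is a steroidal lactone from Withania somnifera. It carries reactive groups that bond to cysteines of proteins, and vimentin, an intermediate filament protein, and the chaperone HSP90 are among its described targets. Celastrol, a triterpene from another plant, is also cysteine-reactive, and both compounds are known for lowering food intake and weight in diet-fed obese mice, an action linked to restored leptin sensitivity. Leptin is the hormone by which fat tissue reports its stores to the hypothalamus, where POMC neurons restrain feeding and neurons that make NPY and AGRP promote it. In obesity the hypothalamus responds poorly to leptin. The array comparison asks what 4 daily doses did to transcript levels in this tissue.

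The tissue was labelled hypothalamus, and its defining transcripts were present on all 12 arrays. The precursor of melanin-concentrating hormone, Pmch, lay at log2 signals of 11.65 to 12.32, and the orexin precursor Hcrt lay at 11.92 to 12.51. The hypothalamic developmental regulators Sim1 and Nkx2-1 lay at 8.42 to 8.78 and 8.35 to 8.78. Crh, the corticotropin-releasing hormone gene, was the dimmest marker examined, at 5.85 to 6.19, close to the 5.81 limit. Agrp is not analysed here. The arrays were alike at the level of the whole profile: the correlation between arrays over all probe sets was 0.988 to 0.990 within the withaferin A group, 0.988 to 0.994 within the DMSO group and 0.985 to 0.991 between them, and no pair was identical.

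No gene passed the threshold of an adjusted p under 0.05 in limma's moderated test with Benjamini-Hochberg adjustment, 0% of the 14953. At an adjusted p under 0.10 there were 8 genes (0.0535%), of which Ide, Pou2f3, Nppa and the predicted gene 2310015D24Rik were higher and Gspt2, Gng5, Igsf1 and the small nucleolar RNA gene Snord73b lower. An unadjusted p under 0.05 was reached by 2352 genes, 15.7% of those tested, of which 990 (6.62%) were higher and 1362 (9.11%) lower with withaferin A. For 1136 genes (7.6%) the 4 withaferin A arrays lay all above or all below the 4 DMSO arrays, 435 of them higher (2.91%) and 701 lower (4.69%). These separations were small: the median absolute difference of the 1136 genes was 0.19 on the log2 scale, 164 of them differed by more than 0.3 and 13 by more than 0.5. One control array bears heavily on the count of calls. Without DMSO replicate 3, limma called 172 genes at an adjusted p under 0.05, 56 higher and 116 lower, and 76 of them were also separated in all 8 arrays. No gene described below passed the adjusted threshold over all 8 arrays, and the arrays of many of them overlap.

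The direction of the differences depended on how bright a gene was. When the tested genes were put into 10 bins by mean signal, the dimmest bin, with mean log2 signals of 5.81 to 6.32, had a median difference of 0.10, with 102 genes separated upward against 8 downward. The brightest bin, at 10.37 to 14.67, had a median difference of -0.05, with 12 genes separated upward and 167 downward. DMSO replicate 3 shared this tilt with the withaferin A arrays. Its median deviation from the DMSO mean was 0.10 in the dimmest bin and -0.04 in the brightest, while DMSO replicate 1 tilted the other way, at -0.07 and 0.03. Withaferin A replicate 3 was the flattest array of the treated group, at 0.03 and -0.04. After a renewed quantile normalization of the gene values, the separated genes were split evenly, 476 higher (3.18% of all tested genes) and 480 lower (3.21%). With each array centred on its own median they were 233 (1.56%) and 1081 (7.23%). The part of this tilt in the gene lists below was not tested separately from treatment, so list medians are set beside those under the renewed quantile normalization, where the median of all genes was 0.0071 against -0.0041 in the deposited values.

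**Figure D1:**
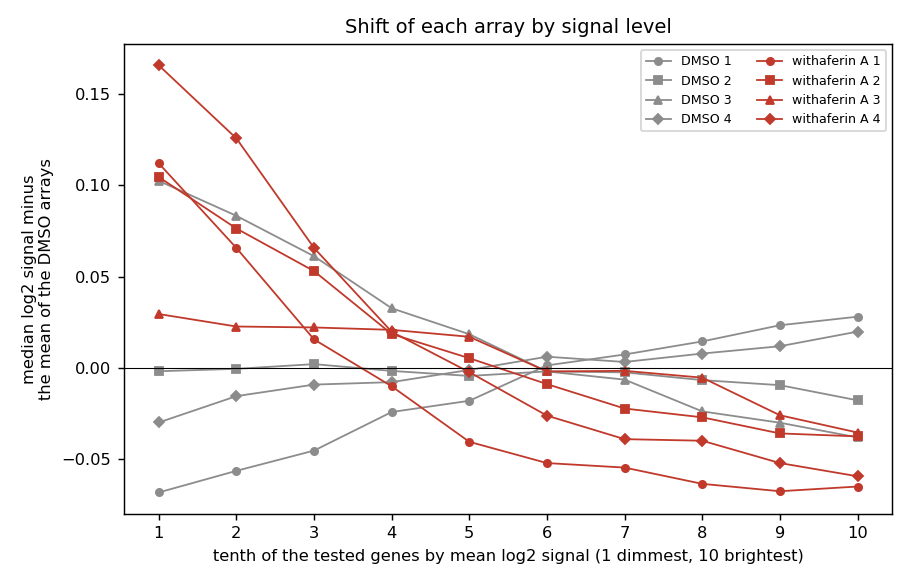
Median log2 signal of each array relative to the mean of the 4 DMSO arrays, for the tested genes in 10 bins of equal size by mean log2 signal from dimmest (1) to brightest (10); red lines are withaferin A arrays and grey lines DMSO arrays. DMSO replicate 3 runs with the withaferin A arrays, from 0.10 in the dimmest bin to -0.04 in the brightest.

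Ide showed the smallest p among the genes that were higher with withaferin A. It encodes insulin-degrading enzyme, a protease that cleaves insulin and other small peptides. Its log2 signal was 9.24, 9.27, 9.04 and 9.08 in the DMSO arrays and 9.88, 9.87, 9.47 and 9.89 in the withaferin A arrays. Every treated array lay above every control array, and withaferin A replicate 3 lay well below the other 3 treated arrays. The difference was 0.62 ± 0.10 (SE; n = 4 and 4), a 1.54-fold higher signal, with an adjusted p of 0.0724 in limma. In the celastrol arrays Ide lay at 8.97 to 9.21, and it was the only one of the 30 genes named by rank here that differed between withaferin A and celastrol at an adjusted p under 0.05, which 0.0468% of all tested genes did. That difference was 0.73 ± 0.10 (adjusted p = 0.0231, limma), at doses that were not matched. Of the 8 tested genes within 500 kb on either side of Ide, itself included, a pair of neighbours also stood higher; these were looked up after the value of Ide was seen. Fgfbp3, a binding protein of fibroblast growth factors, lay at 6.20, 6.24, 6.41 and 6.37 in DMSO and at 6.49, 6.50, 6.37 and 6.74 in withaferin A, with replicate 3 again the lowest treated array (0.22 ± 0.09). Btaf1, which encodes a TATA-binding protein associated factor, lay at 8.31 to 8.48 in DMSO and at 8.57 to 8.73 in withaferin A, without overlap (0.22 ± 0.06). The other 5 of the 8, Tnks2, Cpeb3, Marchf5, Exoc6 and Cyp26c1, had differences between -0.12 and -0.05. As background, a duplication that covers Ide and Fgfbp3 is known to vary between C57BL/6J mice. The genotype of these mice is not analysed here, and the part of such a duplication in the Ide result was not tested.

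The other genes in the top 15 of the higher direction were mostly dim. Apart from Ide and Cspp1, their mean DMSO signals ran from 5.82 for Nr5a2 to 6.97 for Grifin, the range in which the median of all genes was itself above 0. Gal3st2c, named for its relation to galactose-3-O-sulfotransferase 2, had the largest difference of the 15. It lay at 5.76, 6.09, 6.26 and 5.93 in DMSO and at 6.51, 6.70, 6.74 and 6.73 in withaferin A, a difference of 0.66 ± 0.13 (adjusted p = 0.11, limma). Pou2f3, a POU-domain transcription factor known from tuft and taste cells, lay at 6.05 to 6.15 in DMSO and 6.36 to 6.50 in withaferin A (0.32 ± 0.05, adjusted p = 0.0724). Both genes were picked for groups that do not overlap, so the gap between their groups is not a finding.

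Nr5a2, an orphan nuclear receptor of liver and ovary that controls steroid and bile acid genes, lay at 5.75 to 5.87 in DMSO and 6.02 to 6.34 in withaferin A (0.39 ± 0.07). Nppa, the atrial natriuretic peptide gene, lay at 6.29 to 6.43 and 6.64 to 6.75 (0.34 ± 0.06). Cacng1, a subunit of the muscle calcium channel, lay at 6.74 to 6.94 and 7.18 to 7.40 (0.43 ± 0.08). Each of these 3 was near the low end of the signal range. Slc15a3, a lysosomal transporter of peptides and histidine found in immune cells, was higher by 0.34 ± 0.07, and Ppm1j, a protein phosphatase, by 0.38 ± 0.07. Tmem116, Fam131c and Grifin, a lens galectin-like protein, differed by 0.29, 0.38 and 0.41. Ifna2, an interferon alpha gene, was higher by 0.36 ± 0.07 with withaferin A and by 0.43 ± 0.07 with celastrol against the same DMSO arrays. Galnt15, an enzyme of mucin-type O-glycosylation, was likewise higher by 0.35 ± 0.07 and 0.47 ± 0.07. Both contrasts use the same 4 DMSO arrays, so these pairs of values are not independent.

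For Cspp1 and H2ab1 the array itself limits the reading. Cspp1, a centrosome and spindle protein, has 14 probe sets, and their differences ran from -0.35 to 0.31. The brightest of them is the one used here. H2ab1 encodes a histone variant with near-identical copies on the X chromosome, and its 2 probe sets carry the same values, so the copies cannot be told apart.

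**Figure D2:**
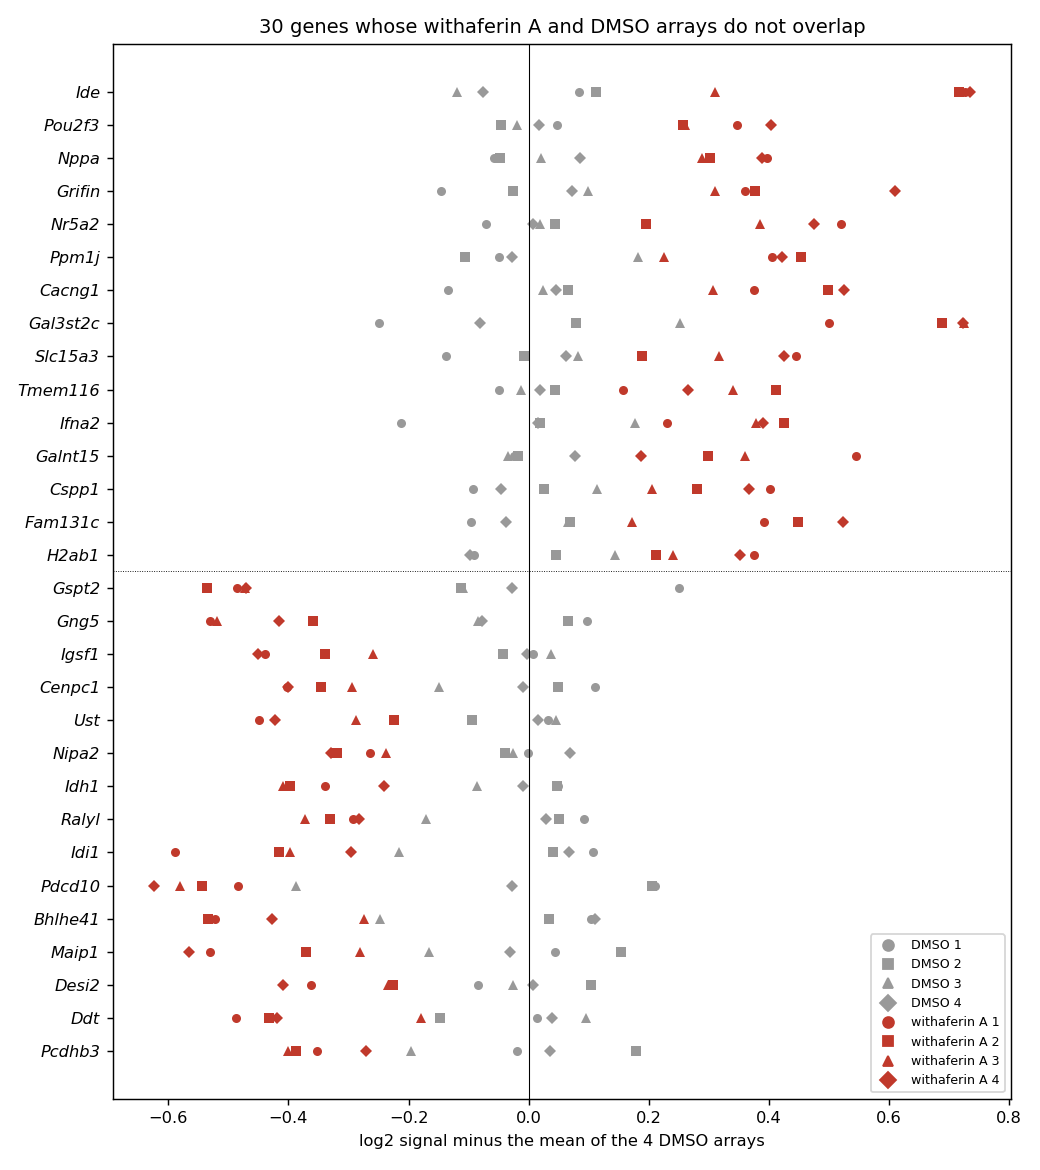
Log2 signal of each array minus the mean of the 4 DMSO arrays for the 15 higher and 15 lower genes with the smallest p among genes whose groups do not overlap; red symbols are withaferin A arrays, grey symbols DMSO arrays, and the symbol shape is the replicate number. The rule picked genes without overlap, so the gap is not a finding; the widest shifts are those of Ide (0.62) and Gal3st2c (0.66) upward and of Pdcd10 (-0.56) downward.

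The 15 lower genes were brighter, with mean DMSO signals from 6.48 for Nipa2 to 10.16 for Ralyl, and several of them have known roles in translation and metabolism. Gspt2, a translation termination factor of the eRF3 family, lay at 7.96, 7.60, 7.60 and 7.68 in DMSO and at 7.22, 7.17, 7.24 and 7.24 in withaferin A. The treated arrays were almost level, and DMSO replicate 1 stood above the other controls. The difference was -0.49 ± 0.08, a 1.41-fold lower signal (adjusted p = 0.0724, limma), and it was -0.52 after the renewed quantile normalization. Gng5, a gamma subunit of heterotrimeric G proteins, lay at 8.14, 8.11, 7.96 and 7.97 in DMSO and at 7.52, 7.69, 7.53 and 7.63 in withaferin A (-0.46 ± 0.08, adjusted p = 0.0849). Igsf1, a membrane glycoprotein whose loss causes central hypothyroidism, lay at 8.79 to 8.87 in DMSO and at 8.38 to 8.57 in withaferin A (-0.37 ± 0.06, adjusted p = 0.0849). With celastrol it was lower by the same amount against the same controls (-0.37 ± 0.06).

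Metabolic enzymes were among the lower genes. Idi1, the isopentenyl-diphosphate isomerase of the cholesterol pathway, lay at 8.91, 8.85, 8.59 and 8.87 in DMSO and at 8.22, 8.39, 8.41 and 8.51 in withaferin A. The groups were separated only narrowly, because DMSO replicate 3 was the lowest control. The difference was -0.42 ± 0.08 (adjusted p = 0.11), and the second probe set of the gene gave -0.38. Idh1, the cytosolic isocitrate dehydrogenase that makes NADPH, lay at 9.76 to 9.90 in DMSO and at 9.44 to 9.61 in withaferin A (-0.35 ± 0.06). Ddt, D-dopachrome tautomerase, a relative of the cytokine MIF, differed by -0.38 ± 0.08. Maip1, a mitochondrial matrix protein involved in assembly of the calcium uniporter, differed by -0.44 ± 0.09.

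Bhlhe41, also called Dec2, is a transcriptional repressor of the circadian clock. It lay at 9.31, 9.24, 8.96 and 9.32 in DMSO and at 8.69, 8.67, 8.93 and 8.78 in withaferin A, a difference of -0.44 ± 0.09 (adjusted p = 0.121). The nearest arrays of the 2 groups, DMSO replicate 3 and withaferin A replicate 3, were almost level. Pdcd10, a gene of cerebral cavernous malformation, had the largest difference of the lower genes, -0.56 ± 0.11, but its DMSO arrays ran from 7.30 to 7.90 and its second probe set differed by only -0.15. Ralyl, an RNA-binding protein of neurons, was the brightest of the 15 and lay at 9.99 to 10.25 in DMSO and 9.79 to 9.88 in withaferin A (-0.32 ± 0.06). Cenpc1, a centromere protein, Ust, a sulfotransferase of dermatan chains, and Nipa2, a magnesium transporter, differed by -0.36, -0.35 and -0.29. For Desi2, a deSUMOylating peptidase, and Pcdhb3, a clustered protocadherin, the differences were -0.31 and -0.35. All 30 genes kept their direction after the renewed quantile normalization and with median centring. Leaving out an array could not reverse it, because the genes were picked for groups that do not overlap. In the limma fit without DMSO replicate 3, 25 of the 30 had an adjusted p under 0.05, where 172 of all 14953 tested genes did. The 30 were ranked by p in these same data, so this is not independent support for them. Of the 1136 separated genes, whatever their p, 79 were passed over because they were predicted genes, small RNAs or chemoreceptors, 58 higher and 21 lower.

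None of the 10 tested genes that the study's question names directly passed the adjusted threshold. The largest difference among them was that of Lcn2 (0.70), described below with the spread. Pomc, the precursor of the melanocortin that restrains feeding, lay at 8.07, 8.25, 8.20 and 8.20 in DMSO and at 7.88, 8.25, 8.84 and 7.85 in withaferin A. The groups overlapped and replicate 3 of the treated group stood high (difference 0.03 ± 0.25, 95% interval -0.51 to 0.56). Npy lay at 9.70 to 9.97 in DMSO and 9.53 to 9.82 in withaferin A (interval -0.31 to 0.08). Lepr, the leptin receptor gene, was dim, at 5.83 to 6.25 over both groups, and its interval was -0.24 to 0.15. Socs3, an inhibitor that leptin signalling induces, and Ptpn1, the phosphatase PTP1B that dampens leptin and insulin receptors, had intervals of -0.15 to 0.33 and -0.22 to 0.09. These intervals leave room for differences of the size seen in the separated genes, so similar levels are not shown. Cartpt, the CART peptide precursor of POMC neurons, was lower at an unadjusted p under 0.05 (-0.22 ± 0.09, adjusted p = 0.263, limma), with overlapping groups, and had the same difference with celastrol (-0.22 ± 0.09) against the same controls.

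Vim and Gfap, 2 intermediate filament genes of astrocytes and tanycytes, were examined because vimentin protein is a described target of withaferin A. Vim lay at 10.88, 10.77, 10.69 and 10.82 in DMSO and at 10.70, 10.60, 10.64 and 10.60 in withaferin A, overlapping by a single array (-0.16 ± 0.06, adjusted p = 0.265, limma). Gfap lay at 9.07 to 9.33 and 8.93 to 9.46 (-0.06 ± 0.12). Of the 18 tested genes for intermediate filaments and lamins, Vim alone had an unadjusted p under 0.05 (5.56% lower, against 9.11% of all genes). After the renewed quantile normalization none of the 18 did, and the difference of Vim was -0.08. The list median was 0.02, or -0.0034 after that normalization. Hspa5, the main chaperone of the endoplasmic reticulum, lay at 11.66 to 11.78 in DMSO and 11.57 to 11.68 in withaferin A (-0.10 ± 0.05).

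Receptors and signalling components followed no single direction. Of 31 tested genes of leptin and insulin signalling, 3 were higher and 3 lower at p under 0.05, and the median was -0.01 (0.03 after the renewed quantile normalization). These shares, 9.68% each way, stand against 6.62% of all genes higher and 9.11% lower. After the renewed quantile normalization 5 were higher (16.1%, against 6.27% of all genes) and 2 lower (6.45%, against 6.92%). Ide, described above, is a member of this list and 1 of the 3 higher genes. Irs4, an insulin receptor substrate abundant in the hypothalamus, lay at 9.71 to 9.79 in DMSO and at 9.44 to 9.59 in withaferin A, without overlap (-0.22 ± 0.07). Igf1r, the receptor for insulin-like growth factor 1, was higher by 0.20 ± 0.07 with overlapping groups. Prkaa1, a catalytic subunit of the AMP-activated kinase, differed by -0.19 ± 0.07. Of 36 receptors for appetite peptides and hormones, 1 was higher (2.78%) and 3 lower (8.33%) at p under 0.05, no more than the shares of all genes, and the median was 0.03 (0.01 after the renewed quantile normalization). Those below are given as values only. The ghrelin receptor gene Ghsr lay at 7.74 to 7.96 in DMSO and 7.94 to 8.16 in withaferin A (0.23 ± 0.08). The receptor for thyrotropin-releasing hormone, Trhr, lay at 7.41 to 7.72 and 6.86 to 7.38 without overlap (-0.42 ± 0.11). Htr2c, the serotonin receptor through which serotonergic drugs restrain feeding, and Galr1, a galanin receptor, were the other lower receptors, at -0.15 and -0.22. Of 10 tested peptides and receptors of POMC and NPY neurons 2 were lower at p under 0.05 (20%, against 9.11% of all genes), Cartpt and Npy2r. The median of these 10 was -0.07 (-0.05 after the renewed quantile normalization). Npy2r, the presynaptic receptor through which peptide YY acts on NPY neurons, lay at 7.38 to 7.58 and 7.04 to 7.32, without overlap (-0.26 ± 0.07). None of these passed the adjusted threshold.

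Neuropeptide precursors were lower as a group. Of 32 tested precursors other than those of POMC and NPY neurons, 22 had a difference below 0. At p under 0.05, 9 were lower and none higher. Without overlap 7 were lower, which is 21.9% of the list against 4.69% of all genes. The list median was -0.14, and it was -0.11 after the renewed quantile normalization. With that scaling 4 were lower at p under 0.05 (12.5%, against 6.92% of all genes) and 4 lower without overlap (12.5%, against 3.21%). Trh, the precursor of thyrotropin-releasing hormone, lay at 10.45, 10.38, 10.39 and 10.50 in DMSO and at 10.24, 10.13, 10.20 and 10.17 in withaferin A (-0.25 ± 0.06, adjusted p = 0.155, limma). Sst, the somatostatin precursor, lay at 12.24, 12.26, 12.39 and 12.31 in DMSO and at 12.04, 12.15, 12.13 and 12.09 in withaferin A (-0.20 ± 0.05). Both peptides restrain or drive pituitary hormone release, and in both every treated array was below every control array.

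Tac1, the substance P precursor, differed by -0.32 ± 0.09, Ucn3, the urocortin 3 precursor, by -0.30 ± 0.10, and Penk, the enkephalin precursor, by -0.20 ± 0.07, all without overlap. Oxt, the oxytocin precursor, lay at 11.51 to 11.56 in DMSO and at 11.31 to 11.42 in withaferin A (-0.18 ± 0.07), and Adcyap1, the PACAP precursor, at 10.26 to 10.32 and 9.95 to 10.17 (-0.23 ± 0.09). In a bulk sample, fewer cells of a type and less RNA per cell cannot be told apart. The list median with celastrol was also -0.14, against the same DMSO arrays. Transcription factors that pattern the hypothalamus showed 7 of 26 lower (26.9%, against 9.11% of all genes) and 1 higher at p under 0.05, with a median of -0.07. The renewed quantile normalization gave 7 lower (against 6.92% of all genes) and a median of -0.10. Dlx1, a homeobox gene of GABA neurons, lay at 9.29 to 9.58 in DMSO and 9.14 to 9.23 in withaferin A (-0.25 ± 0.07). Sim1, required for the paraventricular nucleus, and Fezf1, a zinc finger gene of the ventromedial nucleus, differed by -0.19 ± 0.06 and -0.22 ± 0.09, each without overlap. The 1 higher gene was Nr5a2.

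Genes for the mitochondrial respiratory chain and the ATP synthase lay lower as a set. These nuclear genes encode the complexes that pass electrons to oxygen and use the proton gradient to make ATP. Of 76 tested, 67 had a difference below 0, 28 were lower at p under 0.05 (36.8%, against 9.11% of all genes) and none was higher, and 19 were lower without overlap (25%, against 4.69%). The median was -0.10. After the renewed quantile normalization the median was -0.04, 52 lay below 0 and 16 were lower at p under 0.05 (21.1%, against 6.92% of all genes). Without overlap there were 8 lower (10.5%, against 3.21%) and 2 higher. The set is bright, with a median level of 10.53, so it lies in the range where all genes tended downward. None of the 76 passed the adjusted threshold.

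Complex I carried the largest share of the separated genes, 12 of its 35 tested subunits (34.3%, against 4.69% of all genes). After the renewed quantile normalization 7 were lower without overlap (20%, against 3.21%) and 1 higher. Ndufb6, an accessory subunit of the membrane arm, lay at 10.71, 10.48, 10.52 and 10.65 in DMSO and at 10.28, 10.35, 10.15 and 10.35 in withaferin A (-0.31 ± 0.07, adjusted p = 0.155, limma). Ndufv2, a core subunit with an iron-sulfur cluster, lay at 11.31, 11.22, 11.03 and 11.13 in DMSO and at 10.97, 10.94, 10.90 and 10.81 in withaferin A (-0.27 ± 0.07). Every treated array was below every control array for both. Ndufv3 and Ndufb8 differed by -0.25 ± 0.06 and -0.25 ± 0.07. In complexes II and III, 3 of 14 genes were lower at p under 0.05 (21.4%, against 9.11% of all genes). Among them was Uqcrh, the hinge protein of complex III (-0.17 ± 0.06). After the renewed quantile normalization none of the 14 was lower at p under 0.05. All 10 tested cytochrome c oxidase genes had differences below 0 in the deposited values, and 8 did after the renewed quantile normalization. Cox6a1 lay at 10.66, 10.28, 10.40 and 10.59 in DMSO and at 10.12, 10.18, 10.26 and 10.07 in withaferin A (-0.33 ± 0.08), with the closest arrays, DMSO replicate 2 and withaferin A replicate 3, almost touching. All 17 tested ATP synthase genes also lay below 0, from -0.30 to -0.01. At p under 0.05, 8 were lower (47.1%, against 9.11% of all genes). After the renewed quantile normalization 11 lay below 0 and 4 were lower at p under 0.05 (23.5%, against 6.92%). Atp5h, a subunit of the peripheral stalk, differed by -0.27 ± 0.07. The medians of complex I and of the ATP synthase with celastrol were -0.05 and -0.05, against the same controls.

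Ribosomal protein genes behaved similarly but depended more on the scaling. Of 55 tested cytosolic ribosomal protein genes, 46 lay below 0, 22 were lower (40.0%) and 1 higher at p under 0.05, and the median was -0.09. After the renewed quantile normalization the median was -0.03 and 7 were lower (12.7%, against 6.92% of all genes). Rps29 lay at 10.26 to 10.42 in DMSO and 10.07 to 10.16 in withaferin A (-0.21 ± 0.06), and Rpl37a at 11.22 to 11.39 and 11.02 to 11.17 (-0.23 ± 0.07). Rps14 was the 1 higher gene (0.11 ± 0.05). Ribosomal protein genes have many near-identical copies in the genome, so single members are uncertain. Of 75 mitochondrial ribosomal protein genes, 15 were lower at p under 0.05 (20%, against 9.11% of all genes) and none higher, with a median of -0.08 (-0.045 after the renewed quantile normalization, with 12 lower, 16% against 6.92%). Mrpl13 lay at 8.11 to 8.20 in DMSO and at 7.74 to 7.96 in withaferin A (-0.26 ± 0.06). Of 34 translation factors 12 were lower (35.3%, against 9.11% of all genes) and 1 higher, the lower ones including Etf1, the termination factor that pairs with the product of Gspt2 and its paralog (-0.31 ± 0.08), and Eif4g2, a scaffold of non-canonical initiation (-0.19 ± 0.06). After the renewed quantile normalization 5 translation factors were lower (14.7%, against 6.92%) and the median was -0.05 against -0.10. Without DMSO replicate 1 the median of the translation factors was -0.06.

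**Figure D3:**
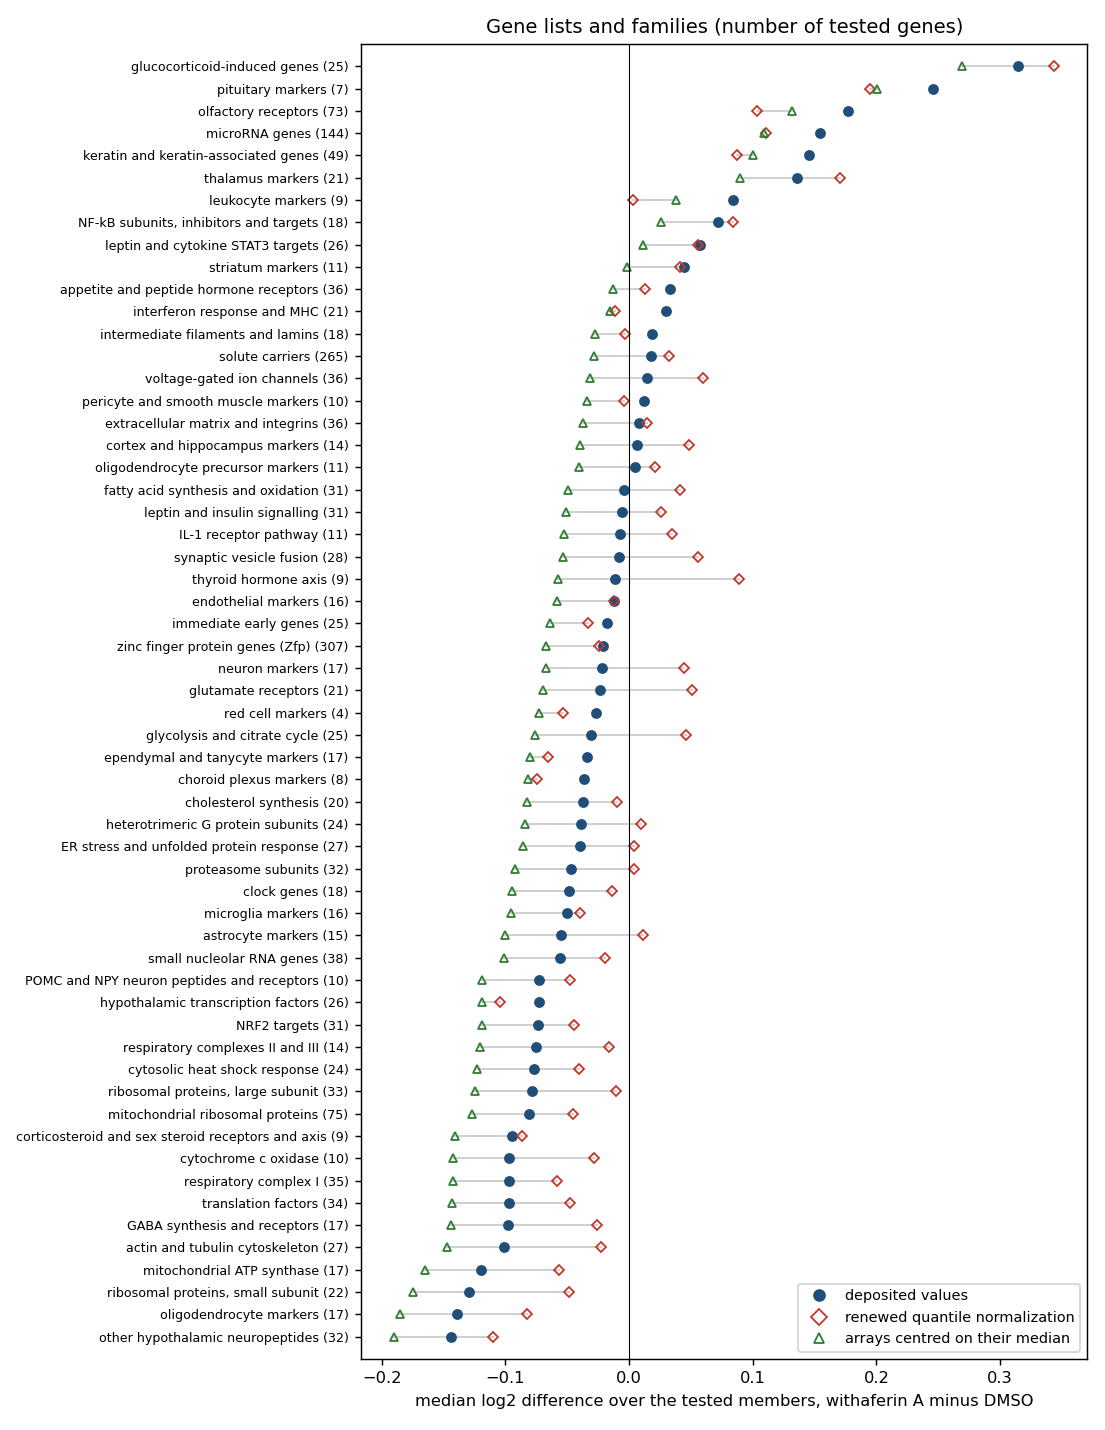
Median log2 difference, withaferin A minus DMSO, over the tested members of each gene list or family, in the deposited values (filled circles), after a renewed quantile normalization (open diamonds) and with each array centred on its median (open triangles). The glucocorticoid-induced list lies furthest to the right (0.31 in the deposited values) and the list of other hypothalamic neuropeptides furthest to the left (-0.14), and the open symbols show how far each list moves with the scaling.

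The promoters of these lists were searched on both strands, over the 250 bases before the start site, for 3 motifs. CCGGAAG, the letters of an ETS family site (ETS letters) of the kind bound by GABPA, was found in 18.5% of the 65 respiratory chain and ATP synthase genes with a promoter in the table, in 31.8% of 44 cytosolic and 24.2% of 66 mitochondrial ribosomal protein genes, in 13.1% of 11824 tested genes and in 7.83% of all 27025 genes in the table. The palindromic consensus of an NRF1 site was found in 6.15% of the respiratory chain and ATP synthase genes, in 0% of the 44 cytosolic and 4.55% of the 66 mitochondrial ribosomal protein genes, in 1.64% of the tested genes and in 0.877% of all genes in the table. The consensus of a glucocorticoid response element, an inverted repeat read with any base in its spacer, was found in 3 of the 20 glucocorticoid-induced genes described next that have a promoter in the table (15%), in 0.364% of tested genes and in 0.44% of all. The promoter of Map3k6 also holds the ETS letters, which share 1 base with its response element letters and are left in lower case there. A match is a description of letters and does not show that a factor binds. Shown as examples are the promoters of 2 of the lower respiratory genes and of the 3 glucocorticoid-induced genes with a match, from RefSeq on GRCm38.p6, written 5′ to 3′ on the strand of the gene, with the matches in capitals. CTTCCGG is the ETS letters read on the other strand. Ndufb6 is at chr4:40279422-40279671 (minus strand), Cox6a1 at chr5:115348959-115349208 (minus), with the NRF1 letters first and the ETS letters near the start. Map3k6 is at chr4:133240568-133240817 (plus), Mt1 at chr8:94178839-94179088 (plus) and Sgk1 at chr10:21993640-21993889 (plus), the last being 1 of 6 start windows listed for that gene.
Ndufb6: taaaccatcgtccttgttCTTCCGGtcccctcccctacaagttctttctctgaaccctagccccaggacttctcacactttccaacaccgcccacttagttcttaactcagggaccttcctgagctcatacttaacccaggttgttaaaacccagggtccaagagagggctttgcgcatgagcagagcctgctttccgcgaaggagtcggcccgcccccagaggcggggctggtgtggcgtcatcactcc
Cox6a1: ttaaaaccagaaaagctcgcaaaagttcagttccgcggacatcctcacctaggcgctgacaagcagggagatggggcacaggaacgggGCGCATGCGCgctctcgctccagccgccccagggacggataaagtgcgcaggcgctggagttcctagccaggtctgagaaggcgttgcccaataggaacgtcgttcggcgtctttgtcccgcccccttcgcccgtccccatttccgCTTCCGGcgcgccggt
Map3k6: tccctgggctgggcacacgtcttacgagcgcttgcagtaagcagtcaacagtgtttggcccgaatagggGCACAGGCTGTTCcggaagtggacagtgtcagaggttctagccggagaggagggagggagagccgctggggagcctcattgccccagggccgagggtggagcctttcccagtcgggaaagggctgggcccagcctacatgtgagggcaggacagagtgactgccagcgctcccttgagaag
Mt1: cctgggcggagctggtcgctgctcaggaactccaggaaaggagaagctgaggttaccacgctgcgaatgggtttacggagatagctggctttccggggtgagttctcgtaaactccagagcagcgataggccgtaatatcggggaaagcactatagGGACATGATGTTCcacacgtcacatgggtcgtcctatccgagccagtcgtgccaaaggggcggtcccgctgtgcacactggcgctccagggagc
Sgk1: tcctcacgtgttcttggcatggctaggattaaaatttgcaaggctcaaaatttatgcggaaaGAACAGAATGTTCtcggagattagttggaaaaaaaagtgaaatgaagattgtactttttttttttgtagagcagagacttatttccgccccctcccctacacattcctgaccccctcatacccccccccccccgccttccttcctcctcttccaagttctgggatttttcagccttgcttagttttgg

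Genes that glucocorticoids induce were the highest list in the comparison, and most of that came from single arrays. Corticosterone acts through the glucocorticoid receptor, a transcription factor, and raises a well-known set of genes across tissues, among them Fkbp5, Zbtb16, Sgk1 and Tsc22d3. Of 25 tested genes of the list, 11 were higher at p under 0.05 (44.0%, against 6.62% of all genes, or 6.27% after the renewed quantile normalization) and none lower, and the median was 0.31 in the deposited values, 0.34 after the renewed quantile normalization and 0.27 with median centring. Only Arrdc2, an arrestin-domain protein, was without overlap (4.0%, against 2.91% of all genes). The mean of the list relative to the DMSO mean was 0.77, -0.01, 0.44 and 0.02 in withaferin A replicates 1 to 4, and -0.04, -0.08, 0.04 and 0.08 in the DMSO arrays. Withaferin A replicates 1 and 3 stood above all controls, while replicates 2 and 4 lay within their range. Replicate 1 was the highest of the 8 arrays for 18 of the 25 genes, against 11.2% of all tested genes. Without replicate 1 the list median was 0.18, and without replicate 2 it was 0.41. In the 4 celastrol arrays the mean of the list was 0.79 to 0.92 above the same DMSO arrays, with all 4 alike.

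**Figure D4:**
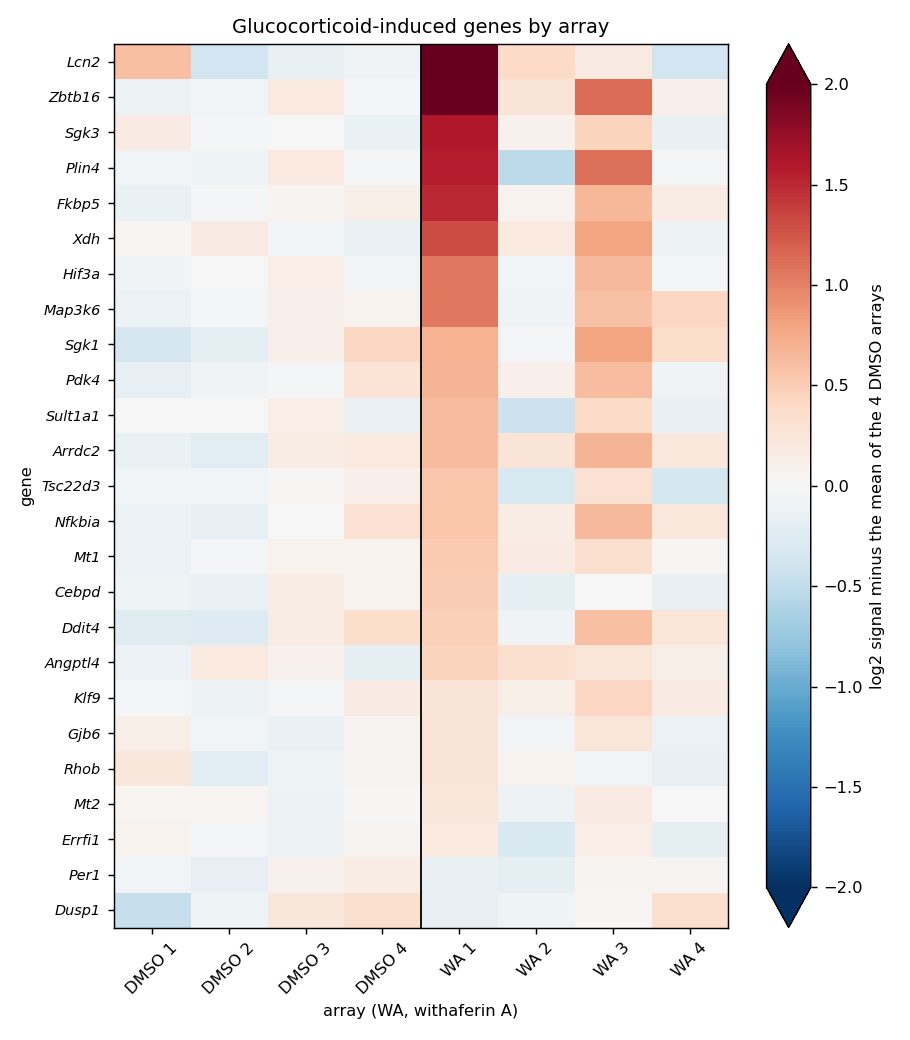
Log2 signal minus the mean of the 4 DMSO arrays for the 25 tested glucocorticoid-induced genes, one column per array (WA, withaferin A), on a colour scale from -2 to 2, with larger values shown at the end colour. WA 1 and, less strongly, WA 3 are red for most genes, and WA 2 and WA 4 resemble the DMSO columns; the list means of the 4 WA arrays are 0.77, -0.01, 0.44 and 0.02.

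Single members showed the same spread. Zbtb16, a zinc finger repressor, lay at 8.93, 8.97, 9.23 and 8.99 in DMSO and at 11.01, 9.28, 10.15 and 9.13 in withaferin A (0.86 ± 0.30, adjusted p = 0.228, limma). Fkbp5, a co-chaperone of the glucocorticoid receptor, lay at 7.39, 7.48, 7.58 and 7.65 in DMSO and at 9.03, 7.59, 8.18 and 7.67 in withaferin A (0.59 ± 0.23, adjusted p = 0.259). Replicate 1 was the highest array in both genes and replicate 3 the next. Map3k6, a stress-activated kinase, lay at 6.30 to 6.52 in DMSO and at 6.35 to 7.48 in withaferin A, highest in replicate 1 (0.49 ± 0.17), and Nfkbia, the inhibitor of NF-kB, at 8.28 to 8.75 and 8.60 to 9.11, highest in replicate 3 (0.39 ± 0.12). Klf9, a zinc finger factor that thyroid hormone also induces, lay at 9.45 to 9.71 in DMSO and 9.67 to 9.96 in withaferin A (0.24 ± 0.07). Arrdc2 lay at 7.05 to 7.48 in DMSO and at 7.91, 7.54, 7.97 and 7.48 in withaferin A (0.45 ± 0.12), with withaferin A replicate 4 almost level with the highest control. Sgk1, a kinase that regulates ion transport, lay at 8.86 to 9.61 in DMSO and at 9.89, 9.18, 9.98 and 9.55 in withaferin A (0.45 ± 0.17). Mt1, a metallothionein, lay at 11.87 to 12.06 in DMSO and at 12.51, 12.16, 12.30 and 12.01 in withaferin A (0.26 ± 0.09).

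By SD over the 4 withaferin A arrays, the 12 most variable genes included Zbtb16, Fkbp5, Plin4, Sgk3 and Lcn2 of the glucocorticoid-induced list, and also Cga, Prkcd, Slc17a7 and Mfsd2a, which are not on it. Lcn2, the acute phase protein lipocalin 2, had the largest SD: it lay at 9.31 in replicate 1, at 7.07, 6.88 and 6.32 in replicates 2 to 4, and at 6.32 to 7.30 in DMSO (0.70 ± 0.51, adjusted p = 0.52). Plin4, a lipid droplet protein, lay at 8.91, 6.81, 8.44 and 7.31 in withaferin A and at 7.25 to 7.53 in DMSO. Mfsd2a, the transporter of docosahexaenoate at the blood-brain barrier, lay at 10.76, 9.43, 10.45 and 9.53 in withaferin A and at 9.90 to 10.08 in DMSO, so that 2 treated arrays were above and 2 below all controls. Slc2a1, the endothelial glucose transporter GLUT1, lay at 12.45, 11.62, 12.09 and 11.64 against 11.47 to 11.72 in DMSO (0.36 ± 0.15). In the other direction, Nr0b1, the orphan receptor DAX1 that represses steroid synthesis, lay at 7.07 to 7.27 in DMSO and at 6.13 to 7.08 in withaferin A (-0.51 ± 0.21), lowest in replicate 1. Nr3c1, the glucocorticoid receptor gene, lay at 8.66 to 8.86 in DMSO and at 8.15, 8.61, 8.63 and 8.72 in withaferin A (-0.23 ± 0.10). Over all tested genes the spread was similar in both groups, with a median SD of 0.099 in withaferin A and 0.094 in DMSO. SD over 0.5 was reached by 28 genes in withaferin A, for 18 of which replicate 1 was the array farthest from the group median, and by 32 genes in DMSO, for 19 of which it was DMSO replicate 1.

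Oligodendrocyte markers were lower, most in the same treated array. Of 17 tested, 8 were lower (47.1%, against 9.11% of all genes) and 1 higher at p under 0.05, and the median was -0.14. After the renewed quantile normalization 6 were lower (35.3%, against 6.92%) and the median was -0.08. In the deposited values 3 were lower without overlap (17.6%, against 4.69%). The mean of the list relative to DMSO was -0.28, -0.05, -0.17 and -0.11 in withaferin A replicates 1 to 4 and -0.04 to 0.04 in DMSO. All 4 treated arrays lay below the controls, and replicate 1 was the lowest of the 8 arrays for 9 of the 17 genes. Opalin, a myelin membrane protein, lay at 8.45 to 8.73 in DMSO and at 7.60, 8.53, 7.75 and 8.46 in withaferin A (-0.47 ± 0.18). Aspa, the enzyme that cleaves N-acetylaspartate, lay at 8.40 to 8.84 in DMSO and at 7.62, 8.57, 8.16 and 8.23 in withaferin A (-0.46 ± 0.17). Ugt8a, which makes the myelin lipid galactocerebroside, differed by -0.40 ± 0.11 and Olig1, a transcription factor of the lineage, by -0.19 ± 0.05, the latter without overlap. The abundant myelin gene Mbp lay at 11.73 to 11.91 in DMSO and 11.65 to 11.72 in withaferin A (-0.13 ± 0.05). Myrf, the master regulator of myelination, was the 1 higher marker (0.13 ± 0.05). Markers of oligodendrocyte precursors had a median of 0.01 (0.02 after the renewed quantile normalization) and none of 11 at p under 0.05.

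Of the lists for nearby tissue, thalamus and pituitary markers were higher in most cases and varied widely between arrays. Cortex and hippocampus, striatum and choroid plexus markers had medians of 0.006, 0.04 and -0.04. Differences above 0 were found for 8 of 14, 6 of 11 and 4 of 8. After the renewed quantile normalization these 3 medians were 0.05, 0.04 and -0.07. Of 21 thalamus markers 17 had a difference above 0, and the median was 0.14 (0.17 after the renewed quantile normalization). At p under 0.05, 2 were higher (9.52%, against 6.62% of all genes) and 1 lower (4.76%, against 9.11%). The thalamus median was 0.0055 without withaferin A replicate 4 and 0.28 without DMSO replicate 4. The list means relative to DMSO were 0.16, -0.29, -0.29 and 0.42 in the DMSO arrays and -0.20, -0.03, 0.34 and 0.48 in the withaferin A arrays. Prkcd, a protein kinase C of thalamic neurons, ran from 8.10 to 10.54 in DMSO and from 8.60 to 10.46 in withaferin A. These 2 ranges overlapped almost entirely. All 7 tested pituitary markers had a difference above 0, with a median of 0.25 (0.19 after the renewed quantile normalization). None had p under 0.05 and none was without overlap. Their list means were -0.15 to 0.10 in DMSO and 0.11 to 0.38 in withaferin A, so all 4 treated arrays lay above all 4 controls. Cga, the common subunit of pituitary glycoprotein hormones, ran from 6.39 to 9.15 in DMSO and from 6.72 to 9.04 in withaferin A. The part of tissue makeup in the differences between groups was not tested beyond a fit with the pituitary and thalamus list means as covariates, which called 9 genes at an adjusted p under 0.05. Neuron markers (median -0.02, 1 of 17 lower at p under 0.05) and astrocyte markers (median -0.05, 2 of 15 lower) had medians above 0, at 0.04 and 0.01, after the renewed quantile normalization. Their shares of lower genes in the deposited values, 5.88% and 13.3%, stand against 9.11% of all genes. The astrocyte median was -0.09 without withaferin A replicate 3 and -0.01 without replicate 4. Of 16 microglia markers 2 were lower at p under 0.05 (12.5%, against 9.11% of all genes), C1qa and P2ry12. The microglia median was -0.05 (-0.04 after the renewed quantile normalization).

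**Figure D5:**
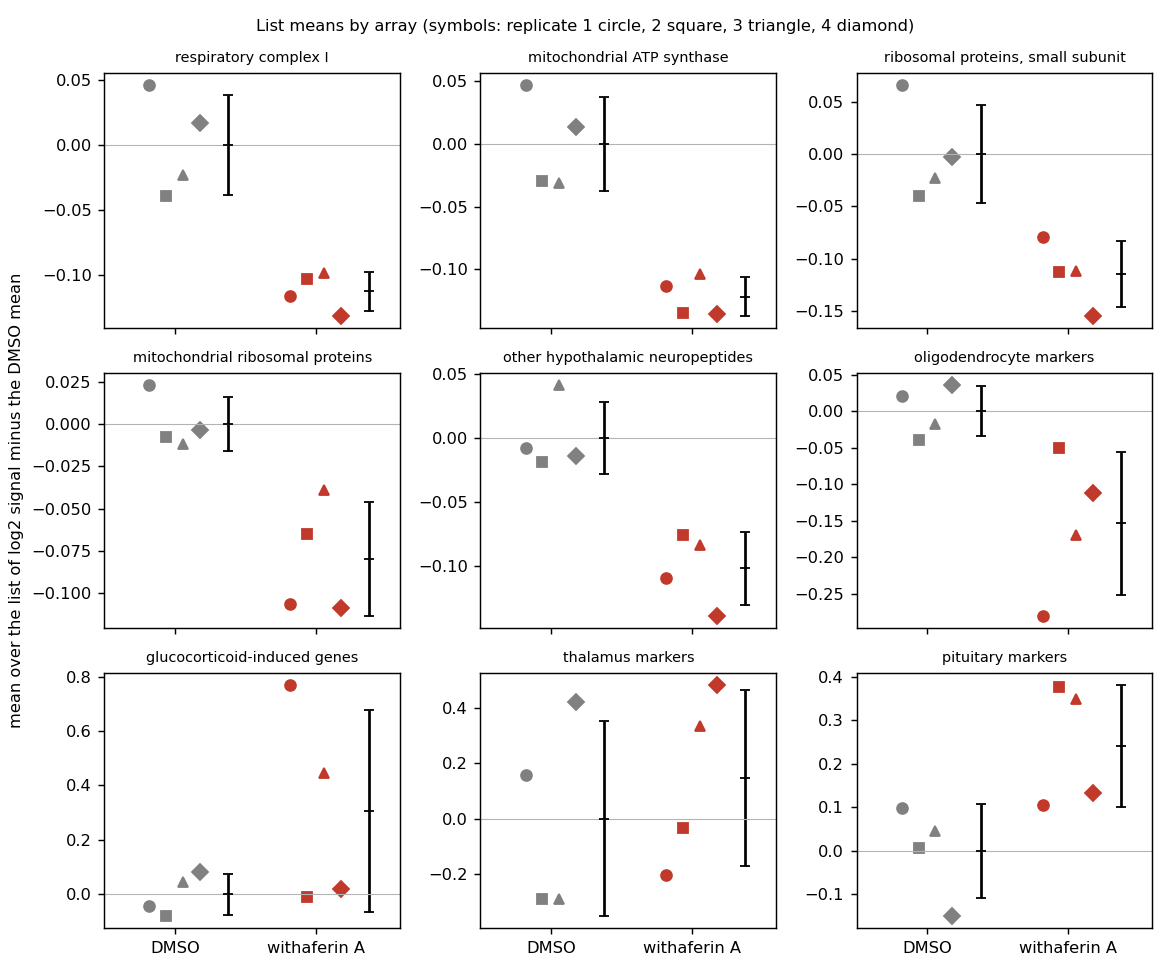
Mean over the tested members of 9 gene lists of log2 signal minus the DMSO mean, for each DMSO array (grey) and each withaferin A array (red), with the group mean and SD in black beside the points; the vertical scale differs between panels. The treated arrays lie together below the controls for complex I, the ATP synthase and both ribosomal lists, and they spread widely for the glucocorticoid-induced and thalamus lists.

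Genes of cholesterol synthesis were lower in part. Of 20 tested genes of cholesterol synthesis, 7 were lower at p under 0.05 (35.0%, against 9.11% of all genes) and none higher, and the median was -0.04. After the renewed quantile normalization 5 were lower (25%, against 6.92%), with a median of -0.01. Besides Idi1 these included Msmo1, a sterol methyl oxidase, which lay at 10.05 to 10.34 in DMSO and 9.81 to 10.01 in withaferin A (-0.30 ± 0.07), and Hmgcs1, the synthase that commits acetyl units to the pathway, at 10.52 to 10.64 and 10.34 to 10.49 (-0.18 ± 0.05). Insig1, which retains the regulator of the pathway in the endoplasmic reticulum, was also lower without overlap (-0.18 ± 0.06). The list median was -0.07 without withaferin A replicate 4.

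Genes of fatty acid synthesis and oxidation went both ways. Of 31 tested, 5 were higher and 5 lower at p under 0.05 (16.1% each way, against 6.62% and 9.11% of all genes), and the median was -0.0039. With the renewed quantile normalization 3 were higher (9.68%, against 6.27% of all genes) and none lower, and the median was 0.04. Angptl4, an inhibitor of lipoprotein lipase that is also on the glucocorticoid-induced list, was the higher member with the smallest p (0.28 ± 0.10, with overlap). Scd1, a desaturase that makes monounsaturated fatty acids, lay at 12.20 to 12.32 in DMSO and at 12.01 to 12.19 in withaferin A (-0.16 ± 0.06), and Hadhb, a subunit of the mitochondrial trifunctional protein of beta-oxidation, at 9.41 to 9.47 and 9.18 to 9.34 (-0.16 ± 0.06), both without overlap.

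Targets of NRF2, the factor that cysteine-reactive compounds release from its inhibitor KEAP1, showed 8 of 31 lower (25.8%, against 9.11% of all genes) and none higher at p under 0.05, with a median of -0.07. The renewed quantile normalization left 8 lower (against 6.92%) and a median of -0.04, and without DMSO replicate 3 the median was -0.12. Ftl1, the ferritin light chain, lay at 10.70 to 10.84 in DMSO and 10.48 to 10.65 in withaferin A (-0.24 ± 0.06). Prdx1, a peroxiredoxin, lay at 9.65 to 10.10 and 9.45 to 9.67 (-0.39 ± 0.10), overlapping through DMSO replicate 3. The cytosolic heat shock list, which HSP90 inhibitors raise, had 5 of 24 lower (20.8%, against 9.11% of all genes) and none higher and a median of -0.08. After the renewed quantile normalization 2 were lower (8.33%, near the 6.92% of all genes) and the median was -0.04. Dnajb4, a co-chaperone of HSP70, lay at 10.58 to 10.83 in DMSO and 10.41 to 10.57 in withaferin A (-0.22 ± 0.06), and Hsp90aa1, the inducible HSP90, at 12.33 to 12.62 and 12.28 to 12.40 (-0.17 ± 0.06). The list of the unfolded protein response had 1 of 27 higher (3.7%), Trib3 (0.25 ± 0.08), and 2 lower (7.41%), Pdia3 and Sdf2l1. These shares are below the 6.62% and 9.11% of all genes. The list median of -0.04 was 0.0041 after the renewed quantile normalization. Proteasome subunits had a median of -0.05 that was 0.0038 after that normalization. At p under 0.05, 3 of 32 were lower (9.38%, near the 9.11% of all genes), and 2 after that normalization (6.25%, against 6.92%).

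Inflammatory and interferon genes did not share a direction. Of 18 tested genes of the NF-kB pathway 5 were higher (27.8%, against 6.62% of all genes) and none lower at p under 0.05, among them Nfkbia, Relb (0.24 ± 0.09), Nfkbiz (0.20 ± 0.08) and Birc3 (0.23 ± 0.10), but none was without overlap. The list median was 0.07 in the deposited values and 0.08 after the renewed quantile normalization, where 1 was higher (5.56%, below the 6.27% of all genes) and 1 lower. The median was 0.04 without DMSO replicate 1. None of the 11 tested genes of the interleukin 1 receptor pathway had p under 0.05. Il1r1 is not analysed here. Of 21 interferon-response and MHC genes, 14 had a difference above 0. The median was 0.03, which turned to -0.01 after the renewed quantile normalization and to -0.02 with median centring. At p under 0.05, 4 were lower (19%, against 9.11% of all genes) and none higher. Ifit3, an antiviral protein that interferon induces, lay at 8.54, 8.09, 8.02 and 8.22 in DMSO and at 7.52, 7.89, 7.15 and 7.55 in withaferin A, without overlap (-0.69 ± 0.17, adjusted p = 0.155, limma), and with celastrol it differed by -0.58 from the same controls. Ifit1 and Ifih1 differed by -0.38 ± 0.13 and -0.23 ± 0.09 with overlapping groups.

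Clock genes were lower in part. Of 18 tested, 5 were lower (27.8%, against 9.11% of all genes) and none higher at p under 0.05, with a median of -0.05. Under the renewed quantile normalization 4 were lower (22.2%, against 6.92%) with a median of -0.01. The median was -0.09 without withaferin A replicate 4 and -0.01 without DMSO replicate 4. Dbp, a clock-controlled transcription factor, lay at 9.99, 9.86, 9.91 and 9.90 in DMSO and at 9.35, 9.55, 9.59 and 9.77 in withaferin A, without overlap (-0.35 ± 0.07). Per3, a period gene, lay at 8.71 to 8.78 and 8.52 to 8.59 (-0.19 ± 0.07). Bhlhe40, the paralog of Bhlhe41, differed by -0.28 ± 0.11 with overlap, and was lowest in withaferin A replicate 1. The labels used here do not give the hour at which tissue was taken.

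Families of genes that were dim on these arrays had medians above 0. Of 144 microRNA genes 40 were higher (27.8%, against 6.62% of all genes) and 1 lower at p under 0.05, with a median of 0.15. After the renewed quantile normalization the median was 0.11, with 37 higher (25.7%, against 6.27% of all genes). Of 73 olfactory receptor genes 18 were higher (24.7%) and none lower, with a median of 0.18 (after renewed normalization 0.10, with 9 higher, 12.3%). Of 49 keratin genes 13 were higher (26.5%) and 1 lower, with a median of 0.15 (after renewed normalization 0.09, with 9 higher, 18.4%). Their median levels were 7.03, 6.19 and 6.34. The filter on dim genes kept only 144 of 300 microRNA genes, 73 of 1027 olfactory receptor genes and 49 of 99 keratin genes. It used the mean over all 12 arrays, withaferin A included, so a dim member could pass through high signals in any group. The shares above describe only the members that passed. Over the other scalings, filters and models, the lowest medians of these families were 0.11, 0.10 and 0.08. Among zinc finger genes named Zfp, 12 of 307 were higher (3.91%) and 37 lower (12.1%, against 9.11% of all genes), with a median of -0.02 in the deposited values and after the renewed quantile normalization. The cytoskeletal list, bright at a median level of 11.34, had 8 of 27 lower (29.6%, against 9.11% of all genes) and none higher and a median of -0.10. After the renewed quantile normalization 2 were lower (7.41%, against 6.92%) and the median was -0.02. It included Dynll1, a dynein light chain (-0.19 ± 0.06), and Tubb2b, a beta tubulin (-0.21 ± 0.07), both without overlap.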

How the data were processed

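RNA from mouse hypothalamus was hybridised to 12 Affymetrix arrays, 4 a group. The authors deposited normalized log2 values for 35556 probe sets, made by RMA per the submitters' processing notes; its version, and the depth of scanning, are not given in the sources used here. RMA sets the arrays to a common distribution before probes are summarised, so a shift shared by all genes cannot be seen. Of the probe sets 21789 carried 1 gene symbol, 1621 several and 12146 none; the brightest single-symbol probe set stood for each of 19938 genes, and 999 genes had several. Genes with a mean log2 value under 5.81, the 25th percentile, were left out. limma 3.58.1 in R 4.3.3 (lmFit and eBayes) was fitted to 14953 genes on all 12 arrays with groups as terms and no covariate, and p-values were adjusted over all genes by Benjamini-Hochberg. Replicates are separate samples per the labels, and p-values measure only the spread between these samples; 4 arrays a group limit the precision.

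Named genes were, among genes whose groups do not overlap, the 15 higher and 15 lower with the smallest p, passing over predicted genes, microRNA and small nucleolar RNA genes and chemoreceptors; 12 genes of the study's question, of which 10 were tested; up to 4 members of each list by p; and the 12 genes with the largest SD. Adcyap1, Insig1, Mbp, Myrf, Opalin, Oxt, Rps14, the neighbours of Ide and the genes at an adjusted p under 0.10 that this rule passes over were named after their values were seen, and Mt1, Sgk1 and Map3k6 were shown for their promoter letters. The genes, the 52 lists and the 7 families were chosen with earlier results of these data known. Alternatives changed the normalization, the filter, the gene level, the variance model, the arrays in the fit, covariates, the replicate block and each array in turn.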

Additional observations from a re-analysis of the deposited data

Results flagged for a closer look

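In each group of 4 arrays, a value was picked out when its gap to the nearest other array was a larger share of the group's range than Dixon's critical value for 4 samples. Chance picks out about 1 in 20 groups in this way, and many groups were examined. In the withaferin A group, replicate 3 stood below the other arrays for Ide, at 9.47, and for Socs3, at 7.37. Replicate 1 stood below the others for Gal3st2c, at 6.51. In the DMSO group, replicate 4 stood above the others for Galnt15, at 6.9001. Of the list means relative to DMSO, replicate 4 of withaferin A stood apart for the unfolded protein response list, at -0.065, and replicate 1 for the list of corticosteroid and sex steroid receptors and their axis, at -0.20.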

How the results depend on the processing

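The count at an adjusted p under 0.05 was 0 in limma with 2352 at an unadjusted p under 0.05; it was 21 with array weights, 8 with an intensity trend and robust prior, 9 with pituitary and thalamus scores as covariates and 0 to 172 with each array left out. It was 172 without DMSO replicate 3 and 1 without withaferin A replicate 3. A threshold of 0.10 gave 8. At an unadjusted p under 0.05, median centring gave 520 higher and 2323 lower, a filter at the 50th percentile 367 higher, no filter 1922 higher, and every probe set 3190 higher and 2239 lower (5429). Genes without overlap were 233 higher and 1081 lower with centring, 166 higher with the 50th percentile, 860 higher with no filter, and 1639 higher and 1190 lower (2829) with every probe set. With each array left out, 1285 to 3341 genes had p under 0.05 (540 to 1479 higher, 745 to 1862 lower), lowest without DMSO replicate 1, and 1309 to 3106 did not overlap (494 to 1322 higher, 815 to 1784 lower). The replicate block gave 2094 at p under 0.05 and 0 past the threshold. Deviations of same-numbered arrays from their group means correlated at -0.012, 0.12, -0.28 and 0.12. With 4 arrays a group these values cannot settle whether same-numbered arrays share more than a number. Medians of lists moved with scaling. With centring they were -0.19 for other neuropeptides, -0.051 for leptin and insulin signalling, -0.084 for G proteins, -0.14 for complex I, -0.17 for ATP synthase, -0.076 for glycolysis, -0.12 for the large ribosomal subunit, -0.13 for mitochondrial ribosomal proteins, -0.086 for the unfolded protein response, -0.12 for NRF2, -0.082 for cholesterol, -0.053 for interleukin 1, -0.027 for intermediate filaments, -0.038 for matrix, -0.067 for neurons, -0.041 for precursors, -0.0016 for striatum, -0.073 for red cells, -0.067 for Zfp genes and -0.028 for solute carriers. With quantile normalization they were -0.11 for other neuropeptides, 0.026 for leptin and insulin signalling, 0.051 for glutamate receptors, 0.056 for vesicle fusion, 0.010 for G proteins, -0.016 for complexes II and III, -0.028 for cytochrome c oxidase, -0.057 for ATP synthase, 0.046 for glycolysis, -0.010 and -0.049 for the large and small ribosomal subunits, -0.045 for mitochondrial ribosomal proteins, 0.0038 for proteasome, 0.0041 for the unfolded protein response, 0.089 for the thyroid axis, 0.035 for interleukin 1, -0.022 for cytoskeleton, 0.044 for neurons and 0.0033 for leukocytes. The 50th percentile gave -0.13 for transcription factors, -0.085 for red cells and 0.42 for olfactory receptors; array weights gave 0.026 and covariates 0.042 for interleukin 1, and covariates -0.018 for striatum. No filter and every probe set gave 0.13 for NF-kB, 0.091 for choroid plexus and 0.063 for red cells. With each array left out, medians ran from -0.16 to -0.11 for other neuropeptides, -0.034 to 0.013 for leptin and insulin signalling, -0.12 to -0.070 for NRF2, -0.0070 to 0.046 for interleukin 1, -0.023 to 0.044 for striatum and -0.0077 to 0.10 for leukocytes. Other lists whose median moved by over 1.5 times were clock genes (-0.091 to -0.011), NF-kB (0.041 to 0.11), translation factors (-0.13 to -0.060), proteasome (-0.066 to -0.026) and the unfolded protein response (-0.060 to -0.024), the last 4 nearest 0 without DMSO replicate 1, astrocytes (-0.089 to -0.014), cholesterol (-0.070 to -0.034), thalamus (0.0055 to 0.28), neurons (-0.040 to -0.0092), interferon (0.0039 to 0.081), intermediate filaments (0.0098 to 0.040), precursors (-0.023 to 0.028), appetite receptors (-0.00054 to 0.057), fatty acids (-0.024 to 0.013), keratins (0.093 to 0.19) and Zfp genes (-0.028 to -0.012). The causes were not tested.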
